A study of Homo sapiens with 2 samples.

Results

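The cells described here are cycling cells that carry a persister-like expression pattern in a lung cancer line. They were chosen from the single-cell matrix by measured RNA levels alone. A barcode was a member when 1000 or more genes were detected in it and mitochondrial transcripts took no more than 20% of its UMIs (unique molecular identifiers, which count captured RNA molecules). It also needed EGFR at 150 CPM or more (counts per 1e+06 UMIs of that cell), no NKX2-1 UMI, a sum of IGFBP3, FN1, HLA-B and CCDC80 of at least 800 CPM, and a sum of TOP2A and MKI67 of at least 200 CPM. This held for 603 of the 8540 barcodes within the limits on genes and mitochondrial share, from 8748 in the matrix. EGFR and NKX2-1 set cells like the PC9 line apart from cells like NCI-H358, the 4-gene sum marks the persister-like state, and TOP2A and MKI67 mark cycling.

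The run pooled 5 populations, each tagged with a hashtag antibody before droplet-based 3′ sequencing. PC9 was pooled without drug and after 4 or 11 days in 150 nM osimertinib, and NCI-H358 without drug and after 8 days in 500 nM sotorasib. Both lines are human lung adenocarcinoma, and osimertinib inhibits mutant EGFR. No row of the matrix is a hashtag, so no member has a labelled line, drug or time. Persister-like and naive-like are therefore names for RNA patterns, and how many members came from either osimertinib time cannot be told from the matrix. All cells came from 1 run, in which no barcode was repeated, so there was no replicate, no test was made, and intervals cover counting error only.

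Drug-tolerant persister cells are the fraction of a tumour population that lives through a targeted drug without a resistance mutation. Most of them stop dividing, because EGFR inhibition shuts off ERK signalling, which drives cyclin D, CDK4 and CDK6 and, through RB1 and the E2F factors, entry into S phase. A small part of persister cells re-enters the cycle under drug. DUSP6, a phosphatase that ERK itself induces and that switches ERK off, is commonly read as a gauge of ERK output.

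Members were compared with 1486 non-cycling persister-like cells, which met the same limits but had TOP2A plus MKI67 under 20 CPM. They were also compared with 1074 cycling naive-like cells, which met the same limits on quality, EGFR, NKX2-1 and cycling but had the 4-gene sum under 300 CPM. Of the 2612 persister-like cells in all, members made up 23.1% (exact Clopper-Pearson interval 21.5 to 24.8), non-cycling cells 56.9%, and the 523 cells between the limits 20.02%. Of the 1559 naive-like cells, 68.9% (66.5 to 71.2) met the same limit on cycling and 39 were non-cycling.

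**Figure D1:**
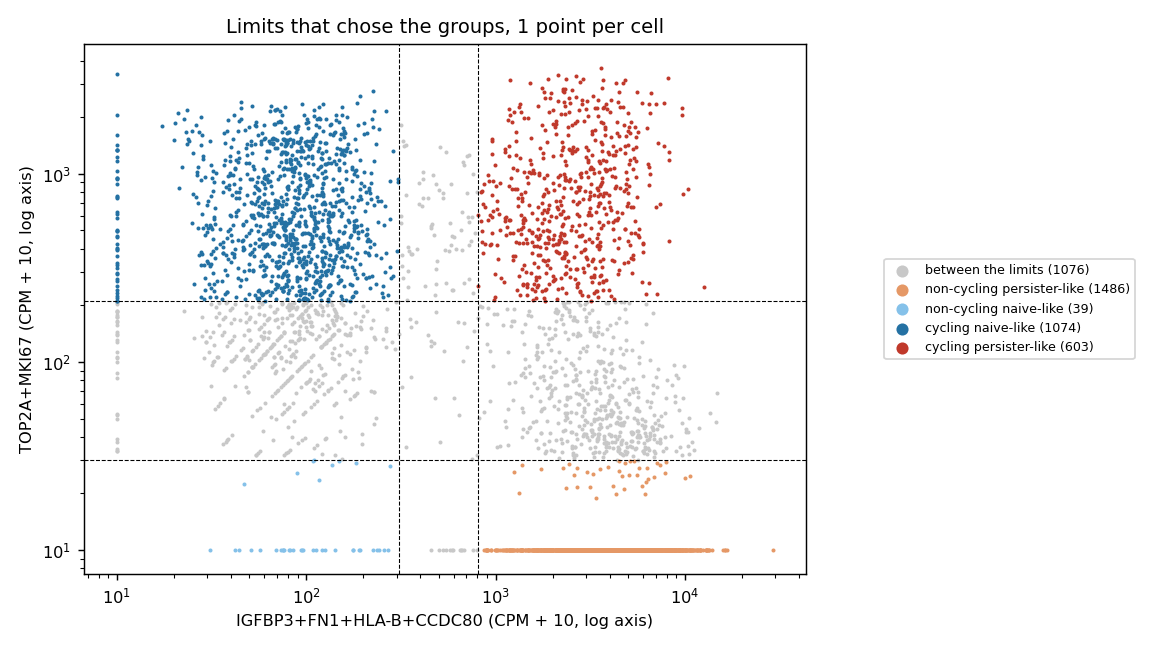
Sum of IGFBP3, FN1, HLA-B and CCDC80 (horizontal, CPM + 10, log axis) against the sum of TOP2A and MKI67 (vertical, CPM + 10, log axis), 1 point per cell with EGFR at 150 CPM or more and no NKX2-1 UMI. The dashed lines are the limits that chose the groups, and the 603 members fill the upper right, with a thin band of cells between them and the 1074 cycling naive-like cells.

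The genes of the rule describe the choice and are no result. In members the 4-gene sum had a median of 2490 CPM (range 800.5 to 12593), against 4252 CPM in non-cycling persister-like cells and 74.2 CPM in cycling naive-like cells. TOP2A plus MKI67 had a median of 687 CPM over members (200.5 to 3639), and EGFR a median of 433 CPM (150.1 to 1873). The member nearest the cycling limit stood at 200.5 CPM and the cell just outside at 198.8 CPM, and 17 members lay within 10% above that limit. For the 4-gene sum the values on either side were 800.5 and 787 CPM, and for EGFR 150.1 and 148.9 CPM. A further 149 cycling cells met the limits on EGFR and the 4-gene sum but had an NKX2-1 UMI, and were left out.

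Members had a median of 44978 UMIs and 7108 detected genes. The medians were 28997 UMIs in non-cycling persister-like and 59203.5 in cycling naive-like cells, so members lay between them in depth. The median mitochondrial share was 4.80% in members, 3.07% in non-cycling persister-like cells and 7.70% in cycling naive-like cells. For the cycling label, all 4 further markers were present, with CDK1 at 292 CPM, UBE2C at 376 CPM, CENPF at 577 CPM and BIRC5 at 144 CPM of summed member UMIs. Of 7 markers of NCI-H358-like cells, SFTA3 (1.32 CPM) and CEACAM5 (0.936 CPM) were near 0 in members, against 86.5 and 43.2 CPM in 2070 cells with NKX2-1 at 40 CPM or more and EGFR under 100 CPM. The 7 summed to 588 CPM in members, 784 CPM in non-cycling persister-like and 594 CPM in cycling naive-like cells. In the 2070 cells the 7 summed to 2236 CPM. FGFBP1 was at 87.4 CPM there and 12.6 CPM in members, and SPANXB1 at 133 and 8.43 CPM. CDA was at 74.96 CPM in the 2070 cells, below its level in members, so it did not set NCI-H358-like cells apart here. CEACAM6 was at 173 CPM in the 2070 cells, below 366 CPM in cycling naive-like cells. Most of the member sum was CDA (350 CPM), CEACAM6 (108 CPM) and S100A2 (107 CPM). S100A2, the highest of the 7 in the 2070 cells at 1638 CPM, was thus not near 0 in members. It stood at 18.8 CPM in non-cycling persister-like and 44.7 CPM in cycling naive-like cells. Over single members S100A2 had a median of 0 and a highest value of 7925 CPM. Of 6 mesenchymal markers, 4 were under 2 CPM in members, whereas TAGLN stood at 55.0 CPM and COL1A1 at 5.39 CPM.

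Many members also had RNA of genes that mark naive-like cells. The 6 naive-like markers (S100A9, KRT6B, IL1RL1, ITGA6, ANO1 and EFNB2) summed to at least 200 CPM in 215 of 603 members (35.7%, 31.8 to 39.6), in 224 of 1486 non-cycling persister-like cells and in 1071 of 1074 cycling naive-like cells. These 215 members had a median of 58756 UMIs and Scrublet, which scores barcodes for likeness to simulated mixtures of cells, called 34.9% of them doublets. The other 388 members had a median of 41937 UMIs, and 7.99% were called. Among all members 106 were called (17.6%, 14.6 to 20.9), against 0.942% of non-cycling persister-like and 1.02% of cycling naive-like cells. Counts of genes, list medians and named genes that differ with these barcodes are therefore also given for persister-like cells with the naive-like sum under 200 CPM, a limit chosen after the data were seen. The part of mixed barcodes in the results was not tested.

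**Figure D2:**
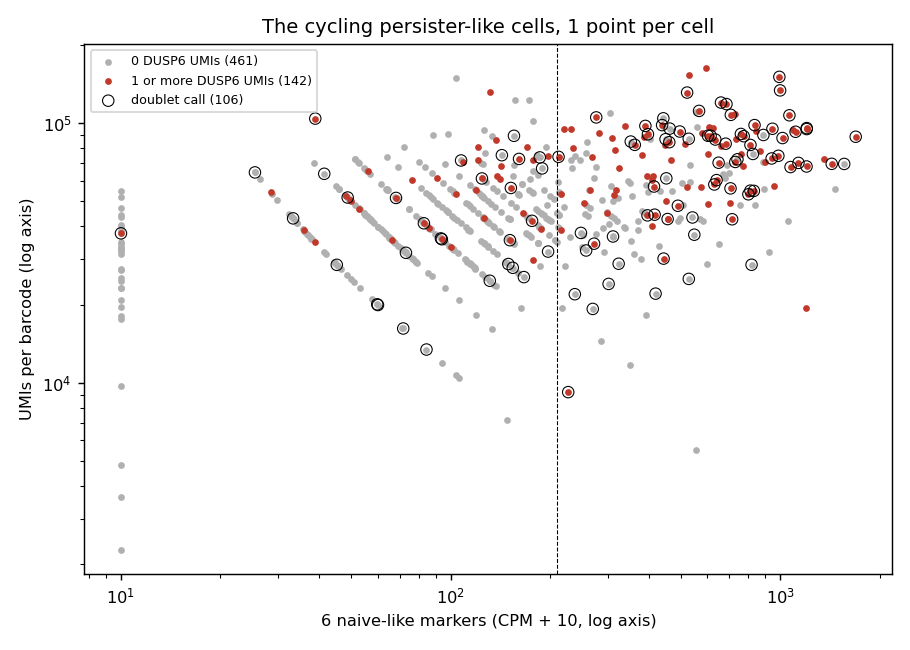
Sum of the 6 naive-like markers (horizontal, CPM + 10, log axis) against UMIs per barcode (vertical, log axis), 1 point per member; the dashed line is 200 CPM, red points had at least 1 DUSP6 UMI and rings are doublet calls. The 215 members right of the line had more UMIs and held 75 of the 106 doublet calls.

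The 215 members also had a lower persister-like sum (median 1831 CPM) than the 388 (2927 CPM). The share of persister-like cells that met the cycling limit is given by persister-like sum as a description, since both quantities chose the cells. It was 134 of 260 cells (51.5%) at 800 to 1600 CPM, 255 of 794 (32.1%) at 1600 to 3200 CPM, and 214 of 1558 (13.7%) at 3200 CPM or more. With the naive-like sum under 200 CPM the shares were 33.6%, 30.4% and 12.8%. Over all levels, 19.1% (17.4 to 20.9) of persister-like cells with the naive-like sum under 200 CPM were members, and 20.4% of those without a doublet call.

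By scores on S phase and G2/M genes that leave out TOP2A and MKI67, with every cell thinned to 5000 UMIs, 474 of 600 members (79.0%) were G2/M-like, 113 (18.8%) S-like and 13 (2.17%) G1-like. Another 3 members were too shallow to thin. Non-cycling persister-like cells were G1-like in 1434 of 1477 cases (97.1%). Among cycling naive-like cells 80.6% were G2/M-like and 18.8% S-like, close to the members. TOP2A and MKI67 are themselves highest in G2/M, so the rule leans to that phase, and the shares are not the phase make-up of all dividing persister-like cells. Free RNA in droplets also enters such scores and was not tested.

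Against non-cycling persister-like cells, members had higher summed levels of nearly the whole cell cycle programme and lower levels of some secreted and lysosomal genes. UMIs were summed over the cells of each group and scaled to CPM, and ratios are log2 of (CPM + 5) for the 10906 genes that reached 5 CPM in either group. Of these, 531 (4.87%) were 2-fold or more higher in members and 245 (2.25%) 2-fold or more lower, with a median over all genes of -0.00. With the naive-like sum under 200 CPM the counts were 568 (5.19%) and 242 (2.21%) of 10935 genes.

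The G2/M list holds genes for chromosome condensation, spindle assembly and exit from mitosis. Of its 52 measured members without the rule genes, 49 were 2-fold or more higher in members and none lower, with a median log2 ratio of 3.00 (50 genes and 3.21 with the naive-like sum under 200 CPM). The groups were cut on TOP2A and MKI67, which are expressed in the same phase, so this is a description of the choice. CDK1 (ENSG00000170312, hg38 chromosome 10, 60778331 to 60794852), the kinase that starts mitosis, stood at 292 CPM (exact Poisson interval 286 to 298) in members and 3.72 CPM in non-cycling persister-like cells. Over single members CDK1 ran from 0 to 1001.5 CPM, with a median of 254 CPM. NUSAP1, which binds spindle microtubules, was at 347 and 5.40 CPM, and CENPF, a kinetochore protein, at 577 and 14.3 CPM. DLGAP5, which stabilises spindle fibres, was at 135 and 1.53 CPM, and CCNA2, the cyclin of S phase and G2, at 133 and 2.34 CPM. TPX2, PBK, ASPM, GTSE1, HMMR, DEPDC1 and HJURP completed the 12 highest ratios among genes at 50 CPM or more, and all 12 had ratios between 4.17 and 5.09.

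Of 43 S phase genes, 34 were 2-fold or more higher in members and none lower, with a median of 1.67 (38 genes and 1.72 with the naive-like sum under 200 CPM). RRM2, the small subunit of ribonucleotide reductase, was at 98.8 and 3.15 CPM, and TYMS, which makes thymidylate, at 140 and 7.15 CPM. PCNA, the clamp that holds DNA polymerase on its template, was at 129 and 31.2 CPM, and CCNE2, an E-type cyclin that opens S phase, at 23.1 and 3.19 CPM. MYBL2 and FOXM1, the factors that switch on the G2/M genes, were at 188 and 85.9 CPM in members against 7.29 and 3.81 CPM. PCNA and the genes CCNB1, PLK1, CDC20 and NCL named elsewhere here were chosen after their values were seen.

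As a list, the genes that gate entry into the cycle differed less than the S phase and G2/M genes. Of 23 measured genes of the list for the G1 to S transition, 6 were 2-fold or more higher in members, with a median of 0.81 (9 genes and 0.94 with the naive-like sum under 200 CPM). Of all measured genes 4.87% were 2-fold or more higher. The highest ratio of the list was 4.23, whereas the genes named next all fell short of 2-fold. CCND1, a D-type cyclin, was at 278 CPM in members and 229 CPM in non-cycling cells, a log2 ratio of 0.28, and CCND2 had 0 UMIs in all groups. CDK4, a partner of cyclin D, was at 180 and 93.8 CPM (0.91), whereas CDK6, the other partner, was at 80.9 and 145 CPM (-0.80). E2F1, which switches on S phase genes, was at 20.01 and 7.91 CPM, and MYC at 72.8 and 54.5 CPM.

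CDK inhibitors went in both directions. CDKN2B (p15INK4b, ENSG00000147883, chromosome 9, 22002903 to 22009305), which blocks CDK4 and CDK6, stood at 33.3 CPM in members and 106 CPM in non-cycling persister-like cells, a log2 ratio of -1.54. CDKN2B was at 5.75 CPM in cycling naive-like cells, so members lay between. CDKN2C (p18INK4c) was at 10.2 and 1.25 CPM in members and non-cycling cells, and CDKN3, a phosphatase of CDK2 and CDK1, at 214 and 9.0 CPM. CDKN1A (p21) was at 22.0 and 20.7 CPM and CDKN1B (p27) at 36.4 and 23.4 CPM. Of the 7 measured genes of this list, 2 were 2-fold or more higher and 1 lower (3 and 1 with the naive-like sum under 200 CPM).

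Promoter sequence was compared between genes that differed in members and all measured genes, for elements of cell cycle promoters. Windows from 250 bases before to 50 bases after each RefSeq start (GRCh38.p14) were searched on both strands. The elements were the cell cycle homology region (CHR), spelled TTTGAA with TTCGAA as its variant form, and the CCAAT box, spelled by its name. E2F motifs were TTTCCCGC, TTTGGCGC, TTTCGCGC and the shorter form TTTGCGC. No spelling of one element contains another's, and overlapping matches each counted. The sequences show the 120 bases before the start for 4 G2/M genes and 2 genes of S phase entry, with matches in capitals.
CDK1, chr10:60778358-60778477, plus strand: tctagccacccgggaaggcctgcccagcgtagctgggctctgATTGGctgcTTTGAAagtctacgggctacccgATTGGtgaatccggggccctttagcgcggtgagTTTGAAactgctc
PLK1, chr16:23678769-23678888, plus strand: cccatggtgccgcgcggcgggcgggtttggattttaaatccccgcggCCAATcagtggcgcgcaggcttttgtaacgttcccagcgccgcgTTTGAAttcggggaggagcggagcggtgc
DLGAP5, chr14:55191586-55191705, minus strand: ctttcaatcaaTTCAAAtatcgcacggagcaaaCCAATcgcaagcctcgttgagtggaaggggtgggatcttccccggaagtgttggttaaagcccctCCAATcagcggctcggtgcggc
CCNB1, chr5:69167030-69167149, plus strand: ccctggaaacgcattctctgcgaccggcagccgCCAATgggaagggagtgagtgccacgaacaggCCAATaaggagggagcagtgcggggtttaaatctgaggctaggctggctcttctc
PCNA, chr20:5126623-5126742, minus strand: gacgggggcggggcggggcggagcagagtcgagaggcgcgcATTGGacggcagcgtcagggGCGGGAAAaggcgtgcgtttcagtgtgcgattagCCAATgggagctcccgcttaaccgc
E2F1, chr20:33686386-33686505, minus strand: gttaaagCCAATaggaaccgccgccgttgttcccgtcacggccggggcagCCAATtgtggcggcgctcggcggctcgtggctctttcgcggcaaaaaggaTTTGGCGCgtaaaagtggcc

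CDK1 has CHR matches at 69 and 13 bases before the start and PLK1 has 1 at 29 bases, each downstream of a CCAAT box. DLGAP5 has its CHR match at 109 bases before the start, upstream of its CCAAT boxes at 87 and 22 bases. The CDK1 window is the second of 2 for that gene, and the PCNA window the first of 2. CCNB1 shows 2 CCAAT boxes and no CHR in these letters, while PCNA and E2F1 each show an E2F motif with 2 CCAAT boxes. CCNB1 stood at 314 CPM in members and 18.3 CPM in non-cycling cells, and PLK1 at 114 and 3.10 CPM.

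Of 8611 measured genes with a promoter window, 15.3% held a CHR, 43.6% a CCAAT box, 9.67% an E2F motif and 6.61% both a CHR and a CCAAT box. Among the 415 such genes 2-fold or more higher in members the shares were 36.1%, 62.4%, 21.2% and 25.3%. Among the 45 genes 8-fold or more higher, 68.9% held a CHR and 27 both a CHR and a CCAAT box, whereas among the 170 genes 2-fold or more lower the share with a CHR was 13.5% and that with both 4.71%. The 33 S phase genes held an E2F motif in 54.5% of cases and a CHR in 12.1%, against 9.30% and 76.7% for the 43 G2/M genes. The genes higher in members came from groups cut on TOP2A and MKI67, so their shares also describe that choice. A match describes the letters only, and no binding was measured.

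DUSP6 (ENSG00000139318, chromosome 12, 89347235 to 89352501), given with TOP2A and MKI67 as a marker of these cells but not used to choose them, stood at 13.0 CPM (11.7 to 14.3) in members. It was at 2.13 CPM (1.73 to 2.59) in non-cycling persister-like cells and 48.2 CPM (46.5 to 49.9) in cycling naive-like cells, so log2 ratios were 1.33 and -1.56. Over single members it ran from 0 to 217 CPM with a median of 0. At least 1 UMI was seen in 142 of 603 members (23.5%), in 5.59% of non-cycling persister-like and in 80.0% of cycling naive-like cells. With each cell thinned to 10000 UMIs the shares were 8.72%, 1.78% and 34.8%. No cell type known to lack DUSP6 is in the run, so its free RNA background was not measured.

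Most of this DUSP6 lay in the members with naive-like markers. The 215 members at 200 CPM or more of these markers held 84.6% of the member UMIs of DUSP6 and stood at 24.9 CPM (22.3 to 27.7). The other 388 stood at 3.58 CPM (2.74 to 4.59), with at least 1 UMI in 10.3% (3.13% thinned). By rising naive-like sum, DUSP6 was at 2.92 CPM for members under 50 CPM, 3.36 CPM at 50 to 100, 4.09 CPM at 100 to 200, 12.2 CPM at 200 to 400 and 33.3 CPM at 400 or more. Without the members and non-cycling cells at 200 CPM or more, the log2 ratio to non-cycling persister-like cells was 0.32, and that to cycling naive-like cells -2.63. The label's DUSP6 thus went with the cycling persister-like cells that also had a naive-like sum of 200 CPM or more and was low in the others.

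Several other genes that ERK induces lay between the 2 comparison groups as well. Of 17 measured genes of the ERK output list, 4 were 2-fold or more higher than in non-cycling persister-like cells and 1 lower, with a median of 0.34. Without the persister-like cells rich in naive-like markers, 1 of 14 was higher and 1 lower, with a median of 0.27. FOSL1, an AP-1 subunit that ERK stabilises and induces, was at 47.0 CPM in members, 8.02 CPM in non-cycling persister-like and 114 CPM in cycling naive-like cells, and at 25.8 CPM in members with the naive-like sum under 200 CPM. ETV4, an ETS factor, was at 17.4, 3.83 and 51.3 CPM in the same order, and at 7.96 CPM in the members with low naive-like sum. PHLDA1 was at 47.7, 13.4 and 130 CPM, and at 25.4 CPM in those members. FOSL1 kept a log2 ratio of 1.44 to non-cycling persister-like cells without the barcodes rich in naive-like markers, whereas ETV4 was at 0.65 and PHLDA1 at 0.86. DUSP4, another ERK-induced phosphatase, was at 70.8, 33.5 and 137 CPM, and SPRY4, a Sprouty feedback inhibitor, at 2.03, 0.447 and 12.4 CPM.

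**Figure D3:**
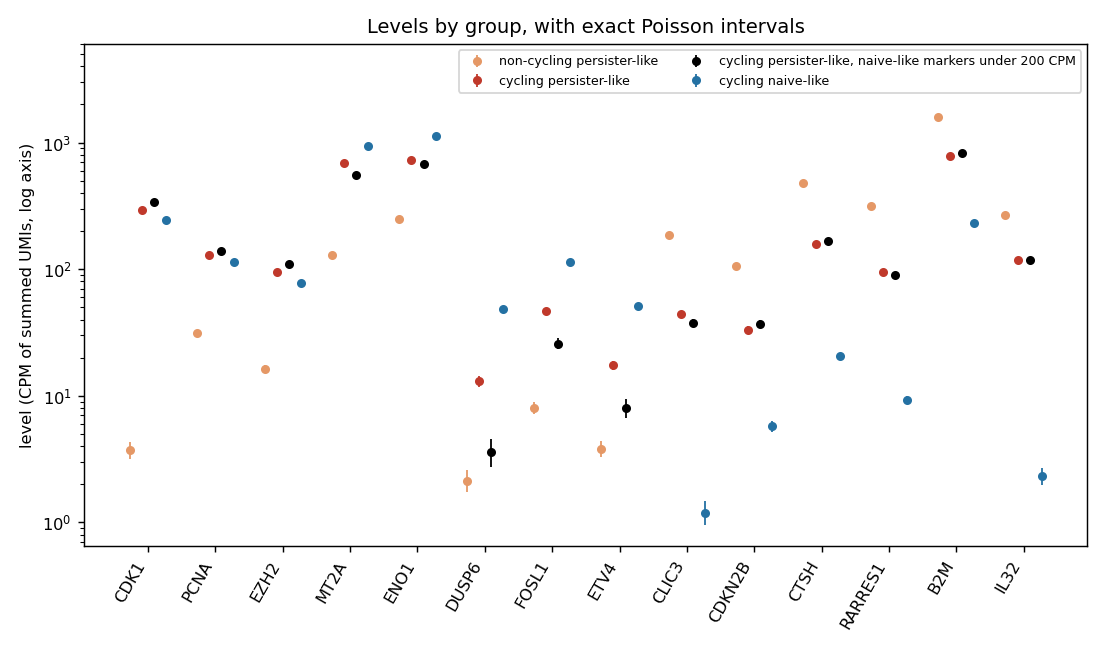
Summed levels of named genes (CPM, log axis) in non-cycling persister-like cells, members, members with the naive-like sum under 200 CPM (black) and cycling naive-like cells, with exact Poisson intervals that cover counting error only. CDK1 differed little between the cycling groups (292 and 242 CPM), whereas DUSP6, FOSL1, CDKN2B and CTSH in members lay between the other groups.

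Members had less RNA than non-cycling persister-like cells for several genes of secretion and defence. CLIC3 (ENSG00000169583, chromosome 9, 136994608 to 136996568), an intracellular chloride channel family protein, had the lowest ratio, with 44 CPM in members against 187 CPM, a log2 ratio of -1.97. PSCA, a surface antigen, was at 177 and 603 CPM, and RARRES1, a retinoid-induced gene, at 94.6 and 316 CPM. S100P was at 121 and 397 CPM, and CFD, complement factor D, at 26.5 and 94.1 CPM. KRT16, PLA2G10, LOXL4, CCDC18-AS1, IGFL2-AS1, FXYD3 and RETREG1 made up the rest of the 12 lowest, with ratios between -1.80 and -1.67. Of 12 measured complement and mucin genes, 7 were 2-fold or more lower and none higher, with a median of -1.06, among them the mucin MUC20 at 48.9 and 161 CPM. With the naive-like sum under 200 CPM the median was -1.09.

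Lysosome, antigen presentation and interferon response genes had medians below 0. Ratios were below 0 for 19 of 21 lysosome and autophagy genes, 9 of 11 MHC class I genes and 16 of 17 interferon response genes. Of all measured genes 2.25% were 2-fold or more lower, and 2.21% with the naive-like sum under 200 CPM. Of 21 measured lysosome and autophagy genes, 5 were 2-fold or more lower and none higher, with a median of -0.58 (4 genes and -0.59 with the naive-like sum under 200 CPM). Their sum was 3371 CPM in members, 5483 CPM in non-cycling persister-like and 1608 CPM in cycling naive-like cells. CTSH, a lysosomal protease, was at 159, 483 and 20.6 CPM in the same order, and PSAP, the precursor of saposins, at 391, 854 and 105 CPM. Of 11 measured MHC class I genes without HLA-B, which is part of the rule, only B2M was 2-fold or more lower, at 786 and 1585 CPM. The MHC class I median was -0.75, and with the naive-like sum under 200 CPM it was -0.59 with 0 of 11 genes 2-fold or more lower. Of 17 measured interferon response genes 4 were 2-fold or more lower, with a median of -0.63 (4 genes and -0.65 with the naive-like sum under 200 CPM), among them IFI6 at 43.8 CPM in members, 135 CPM in non-cycling persister-like and 1.52 CPM in cycling naive-like cells.

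Some genes of growth had higher levels in members than in non-cycling persister-like cells. Of 19 measured ribosome biogenesis genes, 6 were 2-fold or more higher, with a median of 0.56 (4 genes and 0.49 with the naive-like sum under 200 CPM). BOP1, which processes ribosomal RNA, was at 66.8 CPM in members and 19.0 CPM in non-cycling cells, and NCL (nucleolin) at 1021 and 572 CPM. Of 18 measured glycolysis genes only ENO1 was 2-fold or more higher, at 726 and 251 CPM, with a list median of 0.48 (0.38 with the naive-like sum under 200 CPM). MT2A, a metallothionein that binds zinc, was at 687 and 129 CPM, with a median over single cells of 363 and 49.2 CPM. In cycling naive-like cells MT2A was higher still, at 945 CPM with a median of 830 CPM. Among antioxidant and aldehyde genes AKR1B10 was at 167 and 56.6 CPM and SLC7A11, the cystine transporter, at 56.7 and 21.4 CPM, whereas ALDH3A1 was at 104 and 279 CPM.

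Of 17 measured histone methylation genes, 4 were 2-fold or more higher in members than in non-cycling persister-like cells, with a median of 0.24. With the naive-like sum under 200 CPM these were 5 genes and 0.18. EZH2, which methylates histone H3 at lysine 27, was at 94.2 CPM in members, 16.2 CPM in non-cycling persister-like and 77.6 CPM in cycling naive-like cells. EZH1, its paralogue, was at 11.5, 13.97 and 6.69 CPM, and SETDB1, which methylates lysine 9, at 15.0, 14.5 and 13.0 CPM. DNMT1, the maintenance DNA methyltransferase, was at 156, 54.5 and 179 CPM. EZH2 and DNMT1 thus differed between cycling and non-cycling persister-like cells, which were cut on TOP2A and MKI67, whereas SETDB1 was alike in the 3 groups. In the 39 non-cycling naive-like cells EZH2 stood at 53.2 CPM, nearer to cycling naive-like cells.

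Cycling naive-like cells met the same limit on TOP2A and MKI67 and were split from members on the persister-like sum. Like levels of cycle genes and unlike levels of persister-like genes therefore describe the choice of both groups. Of 10544 measured genes, 540 (5.12%) were 2-fold or more higher in members and 104 (0.986%) 2-fold or more lower, with a median over all genes of 0.09. TMM scaling moved that median to -0.13 and the counts to 376 and 230, so ratios here hold relative to that shift. With the naive-like sum under 200 CPM, 678 (6.36%) were higher and 244 (2.29%) lower. The 52 G2/M genes had a median of 0.10 (-0.15 with TMM), with 1 gene 2-fold or more lower, and the 43 S phase genes a median of 0.03, with CCNE2 alone 2-fold or more higher (23.1 and 8.15 CPM).

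The members' S-like cells could be set beside S-like naive-like cells. The S phase and G2/M lists also set these classes, so levels of genes on them describe that choice in part. CCNE2 stood at 91.7 CPM in 113 S-like members and 27.4 CPM in 202 S-like naive-like cells, PCNA at 291 and 187.5 CPM, TYMS at 238 and 145 CPM and EZH2 at 174 and 114 CPM. The S phase list summed to 5082 and 3993 CPM. In G2/M-like cells CCNB1 was at 368 CPM in members and 385 CPM in naive-like cells, CDC20 at 158 and 194 CPM, and PLK1 at 137 and 142.5 CPM. ERK output genes summed to 687 CPM in S-like and 812 CPM in G2/M-like members, against 1253 and 1286 CPM in naive-like cells of the same phases, and CTSH stood at 207 CPM in S-like and 145 CPM in G2/M-like members.

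Of the genes highest in members against cycling naive-like cells, OLR1 and SAA1 stood at the level of non-cycling persister-like cells, and most of the others were below it. OLR1, a receptor for oxidised lipoprotein, stood at 104 CPM in members, 104 CPM in non-cycling persister-like and 0.730 CPM in cycling naive-like cells, a log2 ratio of 4.25. MGP (ENSG00000111341, chromosome 12, 14880864 to 14885857), matrix Gla protein, was at 195, 428 and 6.58 CPM. IL32, a cytokine that NF-kB induces, was at 117, 266 and 2.31 CPM, and GABARAPL1, an autophagosome protein, at 137, 242 and 6.18 CPM. SAA1, an acute phase protein, was at 71.9, 71.7 and 1.07 CPM, and ICAM1, an adhesion receptor, at 69.7, 120 and 2.70 CPM. TAGLN, an actin-binding protein, was higher in members (55.0 CPM) than in non-cycling persister-like (21.4 CPM) and cycling naive-like cells (1.16 CPM). Its median over single members was 0 and its highest value 2961 CPM.

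As groups, 9 of 11 measured MHC class I genes were 2-fold or more higher in members than in cycling naive-like cells, with a median of 1.30 (9 genes and 1.42 with the naive-like sum under 200 CPM). For interferon response genes this held for 7 of 13 (median 1.01), for NF-kB targets for 7 of 11 (1.18), and for YAP and TEAD targets for 9 of 19 (0.95). Complement and mucin genes had 8 of 11 (1.55) and lysosome and autophagy genes 7 of 20 (0.88). The counts were 7, 7, 10, 8 and 10 genes in that order with the naive-like sum under 200 CPM, with medians of 1.04, 1.32, 1.18, 1.496 and 1.01. None of the genes of these 6 lists was 2-fold or more lower over all members, and 1 YAP and TEAD target was with the naive-like sum under 200 CPM. PSMB9, an immunoproteasome subunit, was at 36.6 CPM in members and 31.3 CPM in non-cycling persister-like cells against 2.22 CPM in cycling naive-like cells, so in that gene members matched the persister-like level. YAP1 (61.9, 53.7 and 62.9 CPM) and RELA (42.0, 43.5 and 38.3 CPM) were alike in the 3 groups, and TEAD1 was at 158, 154 and 73.0 CPM.

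**Figure D4:**
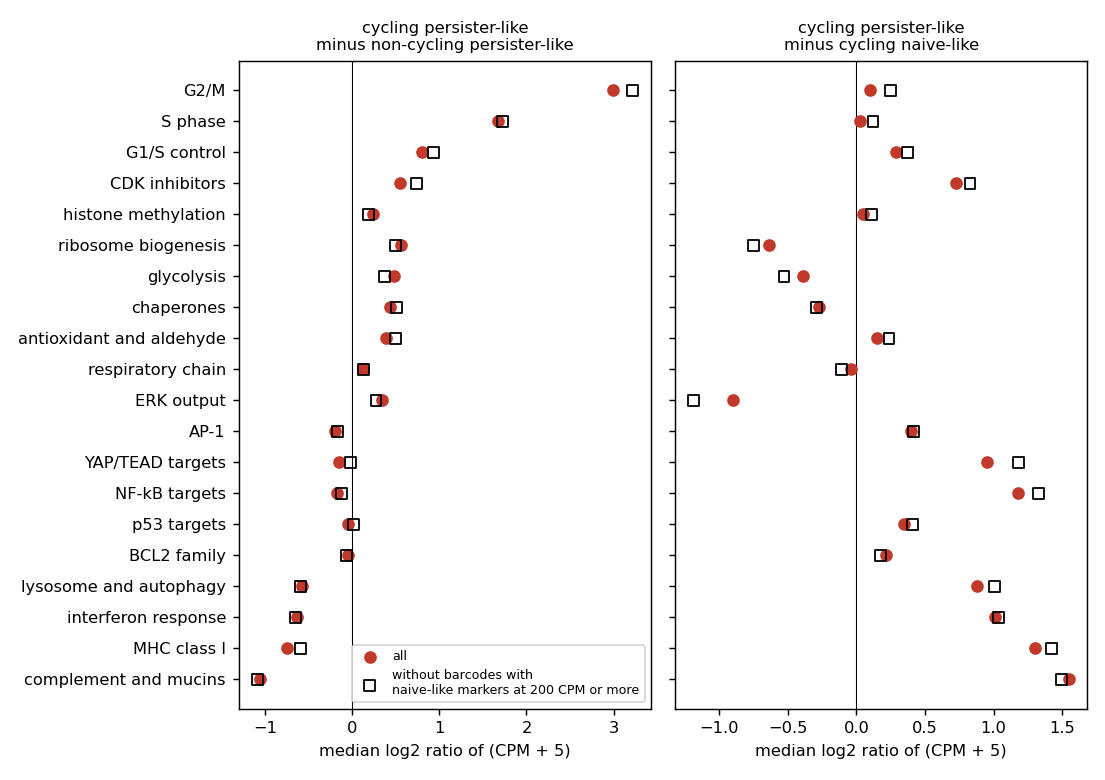
Median log2 ratio of each gene list in members against non-cycling persister-like cells and against cycling naive-like cells, for all members and for those with the naive-like sum under 200 CPM. G2/M genes stood apart from non-cycling persister-like cells (3.00) and not from cycling naive-like cells (0.10), as the limits on TOP2A and MKI67 set, and MHC class I genes had medians of -0.75 and 1.30.

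The genes lowest in members against cycling naive-like cells overlapped the naive-like markers. S100A9, a calcium-binding alarmin, had the lowest ratio, at 104 CPM in members and 474 CPM in cycling naive-like cells (-2.14). In the 388 members with the naive-like sum under 200 CPM S100A9 stood at 19.2 CPM, which follows in part from the limit. Genes that are no such marker were CASP14 (21.9 and 106 CPM), HMGA2, a chromatin protein (28.5 and 120 CPM), SLC20A1 (43.4 and 139 CPM), IRS1, the insulin receptor adaptor (13.9 and 51.0 CPM), NRP2 (16.7 and 58.2 CPM) and CEACAM6 (108 and 366 CPM). For HMGA2 the ratio was -1.90 in all members and -2.77 in those with low naive-like sum, and for IRS1 -1.57 and -2.08. Of 18 measured ERK output genes, 6 were 2-fold or more lower and 1 higher, with a median of -0.90, and with the naive-like sum under 200 CPM 10 were lower (median -1.19). The higher gene, EPHA4, an ephrin receptor, was at 14.8 CPM in members, 41.1 CPM in non-cycling persister-like and 3.69 CPM in cycling naive-like cells.

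Most growth genes had lower levels in members than in cycling naive-like cells. Ratios were below 0 for all 19 measured ribosome biogenesis genes and for 16 of 18 glycolysis genes. Of all measured genes, 0.986% were 2-fold or more lower, and 2.29% with the naive-like sum under 200 CPM. Ribosome biogenesis genes had a median of -0.64, with 2 of 19 at 2-fold or more lower (6 and -0.75 with the naive-like sum under 200 CPM), and summed to 3604 CPM in members, 2153 CPM in non-cycling persister-like and 5688 CPM in cycling naive-like cells. Glycolysis genes had a median of -0.39, with 0 of 18 past 2-fold in either direction, and summed to 8240, 5177 and 10917 CPM in the same order. MYC was at 72.8 CPM in members and 129 CPM in cycling naive-like cells, a ratio of -0.79. Thus MHC class I, lysosome, ribosome biogenesis and glycolysis sums in members all lay between those of the 2 comparison groups. In the 388 members with low naive-like sum they stood at 1865, 3557, 3361 and 7597 CPM, also between.

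Within persister-like cells the same quantities varied with TOP2A plus MKI67, which was also the measure the groups were cut on. MHC class I genes summed to 3351 CPM under 20 CPM of TOP2A plus MKI67, 2745 CPM at 20 to 100, 1902 CPM at 100 to 200, 1824 CPM at 200 to 400 and 1786 CPM at 400 or more. Glycolysis genes summed to 5177, 6435, 8284, 8830 and 8057 CPM over the same bins. MT2A stood at 129, 355, 717, 934 and 610 CPM, so it was highest in the bin from 200 to 400 CPM and not in the cells with most TOP2A plus MKI67. That bin also had the largest share of doublet calls, 26.4% against 14.9% at 400 CPM or more. Those shares were 17.1% and 5.77% with the naive-like sum under 200 CPM. With the naive-like sum under 200 CPM, MT2A was at 114, 275, 680, 880 and 479 CPM and MHC class I at 3275, 2871, 2032, 1930 and 1851 CPM. The cells at 100 to 200 CPM, which the rule leaves out, were thus near members in these sums. The sums also varied with the 4-gene sum, which was lower in members. At 800 to 1600, 1600 to 3200 and 3200 CPM or more of it, MHC class I stood at 1562, 2297 and 3185 CPM. Lysosome and autophagy genes stood at 3189, 4197 and 5177 CPM and glycolysis genes at 8912, 7209 and 5518 CPM. For MHC class I, cells with the naive-like sum under 200 CPM had 1855, 2358 and 3122 CPM. Which of the 2 measures these sums went with was not tested.

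**Figure D5:**
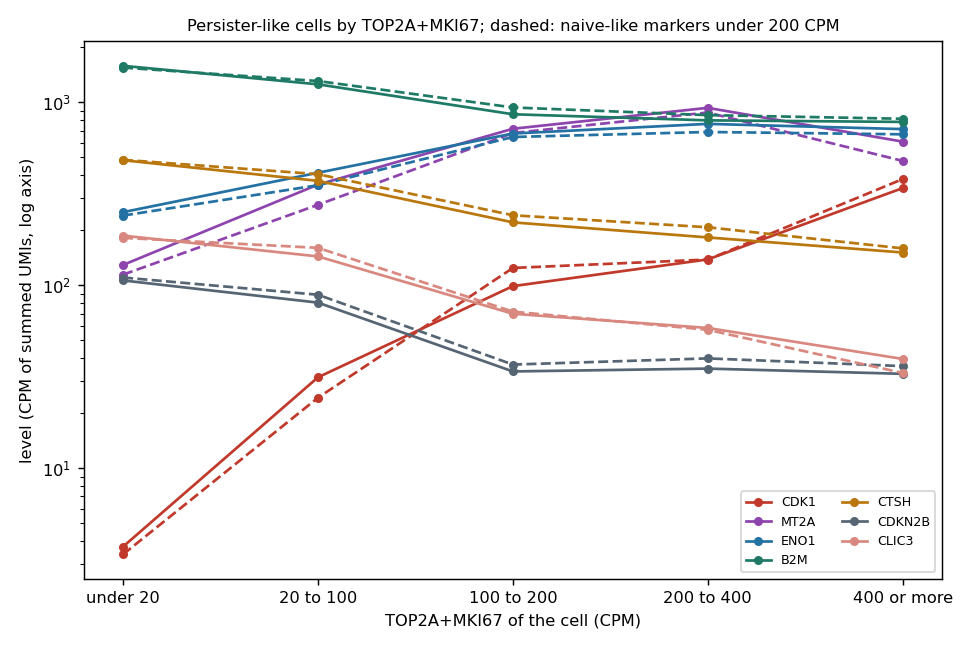
Summed levels of 7 genes (vertical, CPM, log axis) in persister-like cells by bins of TOP2A plus MKI67 (horizontal, CPM), for all cells (solid) and for those with the naive-like sum under 200 CPM (dashed). B2M, CTSH, CDKN2B and CLIC3 were lower and ENO1 and CDK1 higher at 100 CPM or more than in the lowest, whereas MT2A was highest at 200 to 400 CPM.

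Of 14 measured receptor and adaptor genes, 1 was 2-fold or more higher in members than in non-cycling persister-like cells and none lower. Of all measured genes 4.87% were higher. The list median was 0.29 and the highest ratio 1.39, and with the naive-like sum under 200 CPM they were 0.17 and 1.06. Against cycling naive-like cells 3 of 14 were 2-fold or more lower and none higher. With the naive-like sum under 200 CPM 4 were lower and 1 higher. EGFR, a rule gene, stood at 463 CPM in members, and AXL, a receptor kinase often tied to persistence, at 54.3 CPM in members, 27.6 CPM in non-cycling persister-like and 49.2 CPM in cycling naive-like cells. MET was at 34.3, 19.6 and 37.9 CPM, ERBB2 at 39.7, 66.8 and 26.9 CPM, and ERBB3 at 44.5, 68.4 and 24.2 CPM. Members thus had MET and AXL levels near those of cycling naive-like cells and ERBB2 and ERBB3 levels between both groups. Of the genes that mark other persister-like cells, ANKRD1 was at 104 CPM in members and 154 CPM in non-cycling persister-like cells, with 15.8% of the member UMIs in 1 cell, and ATF3 was at 12.1 and 14.6 CPM. HOPX was at 2.0 and 9.0 CPM, and RARRES1, given above, at 94.6 and 316 CPM.

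Cycling could also be compared in naive-like cells, although only 39 of them were non-cycling. Over 11252 genes, the cycling ratio of persister-like cells exceeded that of naive-like cells 2-fold or more for 413 genes and fell short by as much for 213. Among genes that reached 50 CPM in any group, PTTG1 (3.22), CDKN3 (3.12), TYMS (3.11), MYBL2 (2.96) and MT2A (2.76) had among the 6 largest differences of log2 ratio, with S100A2 at the top (5.60). The S100A2 value rested on 1 of the 39 cells, which gave 65.4% of their S100A2 UMIs and had 16065 CPM of NCI-H358-like markers. HIST1H2AC (-2.15), SEMA5A (-1.75), RETREG1 (-1.73), ITGBL1 (-1.72), LYPD2 (-1.71) and GABBR2 (-1.71) had the lowest. The 39 cells were not all outside the cycle by their phase scores, with 16 (41.0%) G1-like, 19 (48.7%) S-like and 4 (10.3%) G2/M-like, against 97.1% G1-like among non-cycling persister-like cells. S phase genes had a median cycling ratio of 0.15 in naive-like cells and 1.67 in persister-like cells, and in the non-cycling naive-like cells the S phase list still summed to 2511 CPM against 754 CPM in non-cycling persister-like cells.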

How the data were processed

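RNA of 1 pooled run was measured with 10x Genomics 3′ chemistry. The authors deposited unnormalized counts (UMIs by gene and barcode), made with Cell Ranger 7.1.0 on hg38 according to the matrix header and the submitters' processing notes. Hashtag reads were not used here, and no cell was given a labelled population. The members and gene lists were chosen with earlier results of these data known. That the cycling naive-like cells also meet the limits on quality, EGFR and NKX2-1 was assumed.

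Limits on genes and mitochondrial share removed 208 barcodes. Scrublet (scanpy 1.11.5) called 635 barcodes (7.44%) at a threshold of 0.145, and these were kept and marked. UMIs were summed per group (30976773 in members, 47022676 in non-cycling persister-like, 67151246 in cycling naive-like cells) and scaled to CPM. Ratios are log2 of (CPM + 5), called at 2-fold, which understates changes of low genes. Cells were thinned (seed 1) for phase scores and shares. Genes named were the 12 highest and lowest ratios at 50 CPM or more in each comparison, the 6 of each end for the difference of the cycling ratios, up to 4 per list and a fixed set of regulators, without mitochondrial, ribosomal protein and clone-named genes; others named were chosen after their values were seen. Positions are from GENCODE 44. The contrast step was tested on simulated data. Alternatives changed the scaling (TMM, edgeR 4.0.16), pseudocount, gene filter, weight and depth of cells, doublets, and each limit on cells. Some items are not reported here.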

Additional observations from a re-analysis of the deposited data

How the results depend on the processing

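With 1 run, no replicate could be left out, and all values describe that run. No paired analysis was possible because the run is 1 sample and no comparison has a test. No direction of a called value was reversed under any alternative run, and of the leading values recomputed under the 13 planned and 2 added settings, 230 and 35 stayed close to those reported and 42 and 9 moved.

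Members were 20.4% of persister-like cells without doublet calls, 17.7% at a cycling limit of 400 CPM, 19.9% at a 4-gene limit of 1600 CPM, 26.9% at an EGFR limit of 300 CPM and 32.9% with CDK1, UBE2C, CENPF and BIRC5 in place of TOP2A and MKI67. Without barcodes at 200 and 400 CPM of naive-like markers they were 19.1% and 20.8%, and 388 members remained at the first.

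Genes 2-fold or more lower than in cycling naive-like cells numbered 104, and 230 with TMM, 165 without mitochondrial and ribosomal protein genes in the total, 205 at pseudocount 1, 163 thinned, 175 without doublet calls, 177 at the 4-gene limit of 1600 CPM, and 244 and 200 without barcodes at 200 and 400 CPM of naive-like markers. Pseudocount 1 gave 862 genes higher than in cycling naive-like cells, 499 lower than in non-cycling persister-like cells, and medians of 2.17 for S phase and 3.92 for G2/M genes. TMM moved G2/M and ribosome biogenesis medians against cycling naive-like cells to -0.15 and -0.87, and the CDK1 set gave 1.93 for S phase.

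DUSP6 against non-cycling persister-like cells was 1.52 without mitochondrial and ribosomal protein genes in the total, 2.16 at pseudocount 1, 1.03 with cells weighted equally, 0.80 without doublet calls, 1.17 at the cycling limit of 400 CPM, 0.85 at the 4-gene limit of 1600 CPM, and 0.32 and 0.59 without barcodes at 200 and 400 CPM of naive-like markers. Against cycling naive-like cells it was, in that order, -1.72, -1.81, -1.83, -2.14, -1.71, -2.10, -2.63 and -2.32, and -1.79 with TMM and -1.68 thinned. It lost the 2-fold call in the first comparison wherever barcodes with naive-like markers, doublet calls or low 4-gene sums were left out. The cause was not tested.

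The difference of the cycling ratios gave 231 higher and 389 lower genes with TMM, 760 and 562 at pseudocount 1, 719 and 672 thinned, and 1199 and 1196 with the CDK1 set, over 26323 genes without a filter and 7019 at 20 CPM. Apart from the CDK1 set, these settings rest on the same 39 non-cycling naive-like cells. Those cells had a median of 160.6 CPM for the CDK1 set, above the non-cycling limit of 20 CPM. The CDK1 set therefore compares a different group of non-cycling naive-like cells.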

Other observations

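Lists not described above were also compared between members and non-cycling persister-like cells. Median log2 ratios were 0.13 for 26 respiratory chain genes, -0.09 for 19 fatty acid oxidation genes, 0.33 for 15 cholesterol synthesis genes and 0.44 for 16 chaperones. They were -0.19 for 11 AP-1 genes, -0.04 for 11 p53 targets, -0.05 for 14 BCL2 family genes, -0.19 for 9 lung lineage genes and -0.28 for 17 epithelial and mesenchymal genes.

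Single genes within them stood further apart. HADH, an enzyme of fatty acid oxidation, was at 40.4 CPM in members, 14.8 CPM in non-cycling persister-like and 45.4 CPM in cycling naive-like cells, and CYCS, cytochrome c, at 368, 162 and 549 CPM. The growth factor AREG was at 24.0, 6.04 and 20.8 CPM, whereas EREG, a related ligand of EGFR, was at 12.1, 10.4 and 30.7 CPM. HRK and BMF, BH3-only genes that promote cell death, were at 10.2 and 5.0 CPM in members, 20.6 and 13.7 CPM in non-cycling persister-like and 1.56 and 1.03 CPM in cycling naive-like cells.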
